A study of Mus musculus with 22 samples.

Results

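The genes of the cornified envelope and of keratinocyte differentiation were followed in cultured mouse mammary cells, in tumours grown from such cells and in primary mammary cancers. The members were found by their names, although the set itself was chosen with earlier results of these data known. It held every gene symbol that begins with Sprr or Lce, every Klk symbol followed by a number alone, and 13 genes given by name (Ivl, Lor, Flg, Krtdap, Sbsn, Dmkn, Cnfn, Tgm1, Tgm3, Krt1, Krt10, Krt13 and Krt4). Of 23993 gene symbols in the table of cultures and tumours, 61 were members: 15 Sprr, 21 Lce and 13 Klk genes and 12 of the genes given by name. Flg was not analysed here. In a second table, of primary cancers and their cultures, 60 of 23490 symbols were members, and Sprr2a2 had no entry there.

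Cells of stratified epithelia stop dividing as they leave the basal layer and then build a cornified envelope, a shell of cross-linked protein under the plasma membrane. Involucrin (Ivl), loricrin (Lor) and the small proline-rich (Sprr) and late cornified envelope (Lce) proteins are its building blocks, and transglutaminases (Tgm1, Tgm3) join them. Kallikreins (Klk) are secreted serine proteases, several of which cut the junctions between cornified cells so that these can be shed. The mammary gland is a skin appendage with a basal and a luminal cell layer and normally forms no cornified layer, although squamous change of mammary epithelium is known in culture and in tumours.

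The study compared mouse mammary cells grown in EpiC, a medium for mammary epithelium, or by conditional reprogramming (CRC), a method in which epithelial cells are usually kept on a feeder layer. The cells came from nulliparous female C57Bl/6 mice of 3 genotypes, spelled in the labels as Tet-op-CYP19A1MMTV-rtTA/p53-/+/MMTV-Cre (here CYP19A1), Brca1fl 11/WT/MMTV-Cre/Trp53-/+ (Brca1het) and Brca1fl11/fl11/MMTV-Cre/Trp53-/+ (Brca1hom). All of them therefore carried 1 mutant Trp53 allele and a Cre transgene under the MMTV promoter, which is active in mammary epithelium and in some other tissues, and no library without these alleles was analysed here. Each genotype gave 1 CRC and 1 EpiC culture, numbered 1 (CYP19A1), 2 (Brca1het) and 3 (Brca1hom). Such cells were also grown as allografts in the mammary gland of Foxn1nu nude hosts, which keep their innate immune cells. The 7 CRC allografts were 6C (CYP19A1), 10B, 10C and 11C (Brca1het) and 1, 2 and 12 (Brca1hom), and the 3 EpiC allografts were 7B (CYP19A1) and 4C and 5A (Brca1het). The second table held 2 primary cancers of the Brca1het genotype, each with a CRC and an EpiC culture, so that libraries with the same number share a cancer. The titles of the 2 cancers begin with the same number and differ in a letter, so both may come from 1 mouse. Nothing in the labels tells whether replicate libraries stem from different mice or dishes. The p-values therefore cover the spread between these libraries alone, which may be technical where libraries share a genotype. In the comparison of media in culture it is the spread of the difference over the 3 genotypes, with 1 culture each per medium.

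Poly(A) RNA was sequenced, and expression is given in FPKM, a fragment count divided by transcript length and library size, which allows levels to be compared between genes per length. The depth of sequencing is unknown from FPKM. Steps between low values put the worth of 1 fragment in CRC culture 3 at 4.36 times that in CRC allograft 10C, the coarsest of the first table, so a 0 in CRC culture 3 is the least informative 0 there. EpiC culture 3 stood apart from the other cultures: 6 markers of simple epithelium summed to 13.1 FPKM there, and Krt8, a keratin of simple epithelium, stood at 0.275 FPKM against 205 to 725 in the other 5 cultures. Counts of member calls that it changed are given with and without it.

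To show what sequence lies next to the genes that carried the result, the 250 bases before the annotated start of 6 members are printed here. They come from RefSeq on build GRCm38.p6, whereas the deposited values were made on mm9, and are written 5′ to 3′ on the gene's strand. Sbsn, Dmkn and Krtdap, which encode secreted proteins of suprabasal keratinocytes, lie side by side on chromosome 7 with 0 other annotated genes between them, and were among the most abundant members in the CRC cultures. Sprr1a was the most abundant member of most allografts. Ivl and Lor are both classical envelope genes, of which the first was expressed in CRC cultures and the second was not. Capitals mark matches to TGANTCA, the letters bound by AP-1 (dimers of Fos and Jun family proteins), which reads the same on both strands.
Sbsn (chr7:30751221-30751470, plus strand): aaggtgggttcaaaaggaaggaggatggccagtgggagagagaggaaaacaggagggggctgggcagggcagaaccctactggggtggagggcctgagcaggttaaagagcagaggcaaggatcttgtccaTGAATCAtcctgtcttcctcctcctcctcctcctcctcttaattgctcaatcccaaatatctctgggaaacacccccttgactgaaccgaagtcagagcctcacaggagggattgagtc
Dmkn (chr7:30763506-30763755, plus strand): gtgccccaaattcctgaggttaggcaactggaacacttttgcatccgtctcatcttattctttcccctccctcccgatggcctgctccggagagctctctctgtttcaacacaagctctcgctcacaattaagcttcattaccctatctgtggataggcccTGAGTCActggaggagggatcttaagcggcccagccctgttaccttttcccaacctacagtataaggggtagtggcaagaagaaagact
Krtdap (chr7:30787655-30787904, plus strand): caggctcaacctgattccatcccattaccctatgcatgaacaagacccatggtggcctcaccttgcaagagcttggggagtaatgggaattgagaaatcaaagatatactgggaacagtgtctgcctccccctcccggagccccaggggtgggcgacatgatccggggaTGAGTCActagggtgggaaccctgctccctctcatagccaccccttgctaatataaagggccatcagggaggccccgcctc
Sprr1a (chr3:92485882-92486131, minus strand): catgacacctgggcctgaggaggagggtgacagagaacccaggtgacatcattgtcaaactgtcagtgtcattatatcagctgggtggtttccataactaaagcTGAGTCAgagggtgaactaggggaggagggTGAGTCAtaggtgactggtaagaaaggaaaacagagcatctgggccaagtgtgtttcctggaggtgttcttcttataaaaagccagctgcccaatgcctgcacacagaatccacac
Ivl (chr3:92573736-92573985, minus strand): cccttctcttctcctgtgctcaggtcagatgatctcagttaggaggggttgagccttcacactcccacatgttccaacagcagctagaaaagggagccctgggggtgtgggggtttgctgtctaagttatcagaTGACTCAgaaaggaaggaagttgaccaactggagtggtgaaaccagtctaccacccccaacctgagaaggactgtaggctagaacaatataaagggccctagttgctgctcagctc
Lor (chr3:92083143-92083392, minus strand): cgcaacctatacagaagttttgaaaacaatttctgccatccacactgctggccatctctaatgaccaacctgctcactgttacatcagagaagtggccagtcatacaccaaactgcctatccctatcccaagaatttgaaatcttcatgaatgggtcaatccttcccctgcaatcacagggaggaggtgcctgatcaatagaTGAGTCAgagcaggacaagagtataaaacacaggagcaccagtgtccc

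Each of these 6 promoters held a match, and Sprr1a held 2. A second match in Sbsn ran across the annotated start. Its last base lies outside the printed bases, so it is not marked. Promoter windows of 300 bases (250 before and 50 after the start) were found for 56 of the 61 members. TGANTCA was present in 15 of the 56 (26.8%), against 8.97% of 27025 genes with such windows. The letters were found in 9 of 13 Sprr genes and 6 of 10 genes given by name, but in 0 of 20 Lce and 0 of 13 Klk genes. By level in CRC cultures they were found in 8 of 16 members with a mean of 10 FPKM or more, in 5 of 11 with 1 to 10 FPKM, and in 2 of 29 under 1 FPKM. Lor, which was near 0 in CRC cultures, is 1 of those 2. The KLF letters CACCC, on either strand, were found in 35 of 56 members (62.5%) against 59.8% of all genes, and the GRHL letters AACCNGTT in 0 of 56 against 2.35%. These are matches of letters, and many members share ancestry, so the shares are a description only.

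The Sprr2 genes, a tandem family on chromosome 3, held the match at nearly the same place. It began 193 to 198 bases before the start in 7 of the 9 Sprr2 members with a window. The 30 bases around it are printed for these 7 to show its flanks, with capitals again marking TGANTCA. As the 7 were chosen for the match, its fixed letters are alike by choice, so the spread of the flanks cannot be weighed against them. In Sprr2k a second match runs past the end of the printed bases.
Sprr2b (chr3:92316500-92316529, plus strand): aaaggactctTGAGTCAcaagactcaacct
Sprr2d (chr3:92338937-92338966, plus strand): gagtgctcacTGAGTCAcaggtctcaacgg
Sprr2e (chr3:92351940-92351969, plus strand): gagtgctcacTGAGTCAcaggtctcaacag
Sprr2f (chr3:92364980-92365009, plus strand): aactgaatatTGAGTCAcagtgctcaacaa
Sprr2h (chr3:92385477-92385506, plus strand): ggatggtctcTGAGTCActgcactttaccc
Sprr2i (chr3:92407788-92407817, plus strand): aagggctcacTGAGTCAcaggactgaacaa
Sprr2k (chr3:92432376-92432405, plus strand): gaatgtcctcTGAGTCActgtacttgactc

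Sprr2b, with the same 7 letters in that place, had a mean of 0.284 FPKM in CRC cultures, and Sprr2d had 30.4.

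The members formed a narrow programme that was concentrated in the CRC cultures. Among the cultures and allografts 33 members reached 1 FPKM in any library and 20 reached 10 FPKM, while 28 stayed under 1 and 4 of these were at 0 throughout. Members at 1 FPKM or more numbered 25, 29 and 22 in CRC cultures 1, 2 and 3, and 5, 11 and 6 in EpiC cultures. The 10 allografts had 3 to 9. The summed level of all 61 members was 2977, 3689 and 2723 FPKM in the CRC cultures and 106, 165 and 101 FPKM in the EpiC cultures, a difference without overlap. These sums made up 0.481%, 0.621% and 0.456% of all FPKM in the CRC libraries. In the allografts the sum lay between 7.86 and 41.1 FPKM.

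**Figure D1:**
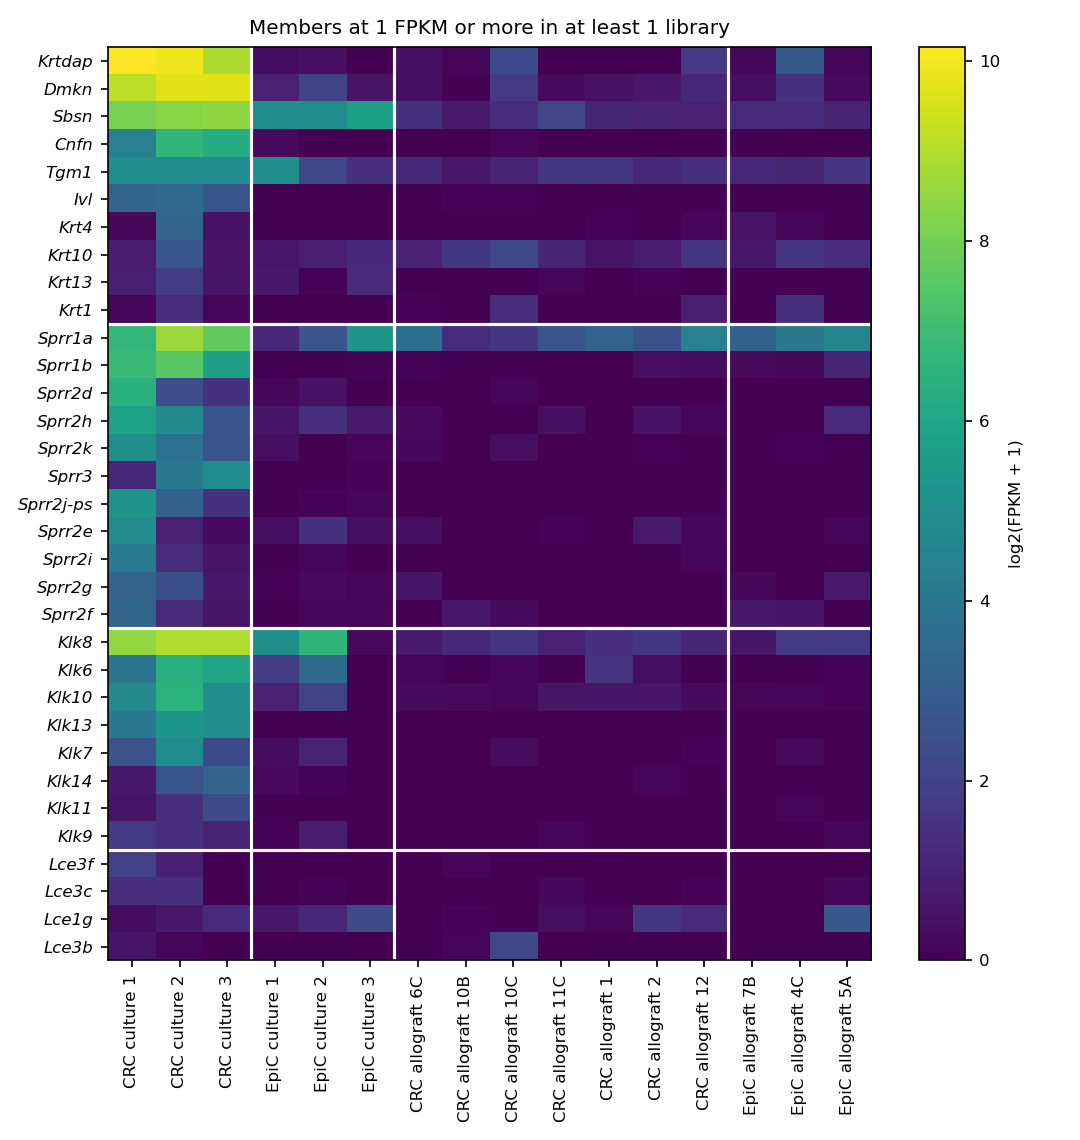
Level of each member that reached 1 FPKM in at least 1 library (rows) in the 16 libraries of the first table (columns), as log2(FPKM + 1) in colour. Rows are grouped from top to bottom as genes given by name, Sprr, Klk and Lce, and white lines separate groups. The 3 CRC cultures on the left hold nearly all high values, with Krtdap at up to 1140.4 FPKM.

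Secreted suprabasal proteins led the list. Krtdap (keratinocyte differentiation-associated protein) stood at 1140.4, 962 and 477 FPKM in CRC cultures 1, 2 and 3 and at 0.266, 0.331 and 0 FPKM in the EpiC cultures. Every CRC culture was far above every EpiC culture. Differences were taken between log2(FPKM + 1) values, which makes the change of weakly expressed genes look smaller. For Krtdap this difference was 9.41 (SE 0.23, limma adjusted p = 0.00171). Dmkn (dermokine) stood at 565, 834 and 835 FPKM in CRC cultures and 0.890, 3.29 and 0.452 in EpiC cultures, a log2 difference of 8.33 (SE 0.34, limma adjusted p = 0.0022). Sbsn (suprabasin) stood at 276, 329 and 355 FPKM in CRC cultures and at 30.7, 30.4 and 52.1 FPKM in EpiC cultures, and was the only member above 10 FPKM in all 3 EpiC cultures. Its difference of 3.09 on the log2 scale (SE 0.19, limma adjusted p = 0.00434) was the smallest of these 3 neighbouring genes. So the groups did not overlap for any of the 3, but Sbsn kept a level in EpiC cultures that Krtdap and Dmkn did not. How many of all genes lacked overlap between these cultures was not counted, here or for the other members. Of all tested genes, 42.2% had an unadjusted limma p under 0.05 in this comparison. The order of Krtdap and Dmkn in CRC cultures was not fixed, since Krtdap was higher in cultures 1 and 2 and Dmkn in culture 3. In bulk RNA, fewer cells that express a gene and less RNA of it per cell cannot be told apart.

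Among structural envelope proteins, Sprr1a and Sprr1b were high and Ivl moderate. Sprr1a stood at 106, 400.3 and 206 FPKM in CRC cultures and at 1.18, 4.98 and 37.1 FPKM in EpiC cultures. The groups did not overlap, although EpiC culture 3 was well above the other EpiC cultures (log2 difference 4.71, SE 0.78, limma adjusted p = 0.0239). Sprr1b stood at 117, 183 and 53.8 FPKM in CRC cultures and at 0, 0.0479 and 0.0857 in EpiC cultures (log2 difference 6.67, SE 0.39, limma adjusted p = 0.00379). Unlike Sprr1a, it was near 0 in all 3 EpiC cultures. Cnfn (cornifelin, an envelope component) stood at 20.4, 103 and 76.7 FPKM in CRC cultures and at 0.209, 0 and 0 in EpiC cultures (log2 difference 5.71, SE 0.55, limma adjusted p = 0.00998). Ivl, an early scaffold of the envelope, stood at 8.28, 10.2 and 5.31 FPKM against 0.0442, 0.0177 and 0 (log2 difference 3.09, SE 0.25, limma adjusted p = 0.00733). For Cnfn and Ivl every CRC culture was above every EpiC culture.

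Of the cross-linking enzymes Tgm1 was expressed and Tgm3 was near 0. Tgm1, the membrane-bound transglutaminase of keratinocytes, was nearly the same in the 3 CRC cultures, at 31.7, 29.3 and 29.8 FPKM. In the EpiC cultures it stood at 32.8, 3.42 and 1.59 FPKM. EpiC culture 1 was thus at the level of the CRC cultures, and the groups overlapped. The log2 difference of 2.10 (SE 0.75) did not pass the test (limma adjusted p = 0.107), and without EpiC culture 1 the limma adjusted p was 0.0374. That fit takes the whole CYP19A1 pair out of the difference, and Tgm1 was also called without CRC culture 1. Tgm3, the transglutaminase of the upper epidermis and hair follicle, did not exceed 0.0671 FPKM in any culture.

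Kallikreins were expressed in a subset. Klk8 was the most abundant, at 362, 487 and 495 FPKM in CRC cultures and 31.9, 100.5 and 0.195 FPKM in EpiC cultures. All CRC cultures were above all EpiC cultures, but the EpiC cultures spread so widely that the log2 difference of 4.81 (SE 1.33) did not pass the test (limma adjusted p = 0.0645). Without EpiC culture 3, the library with few simple epithelial transcripts, the limma adjusted p was 0.0118. That fit takes the whole Brca1hom pair out of the difference, and Klk8 was also called without CRC culture 3. Klk6 stood at 13.97, 82.6 and 60.4 FPKM in CRC and 2.62, 10.04 and 0 in EpiC cultures (log2 difference 3.64, SE 0.80, limma adjusted p = 0.0414). Klk10 stood at 26.3, 89.5 and 30.8 FPKM against 0.915, 2.96 and 0 (log2 difference 4.45, SE 0.27, limma adjusted p = 0.00429). Klk13 stood at 16.1, 39.4 and 30.8 FPKM against 0, 0.0360 and 0 (log2 difference 4.79, SE 0.29, limma adjusted p = 0.00429). In each of Klk6, Klk8 and Klk10 EpiC culture 2 was the highest and EpiC culture 3 the lowest of the EpiC cultures. Klk7, a chymotrypsin-like enzyme that helps shed cornified cells, stood at 5.02, 29.8 and 3.87 FPKM against 0.271, 1.00 and 0 (log2 difference 2.82, SE 0.42, limma adjusted p = 0.0196). Klk14 stood at 0.621, 5.14 and 8.53 FPKM against 0.211, 0.0846 and 0, without overlap, but with a limma adjusted p of 0.0735. Klk5, the trypsin-like partner of Klk7 in the cornified layer, did not reach 1 FPKM in any library of the first table.

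Loricrin, the epidermal keratin pair and the Lce genes were low in the CRC cultures. Lor, the main envelope protein of the epidermis, stood at 0.0945, 0.210 and 0 FPKM. Krt1 stood at 0.1002, 1.59 and 0.0910 FPKM and Krt10, its partner in suprabasal epidermis, at 0.772, 5.46 and 0.431 FPKM. Krt10 in EpiC cultures, at 0.565, 0.805 and 1.26 FPKM, overlapped with that range (limma adjusted p = 0.55). Krt4 and Krt13, the keratin pair of stratified epithelia that do not cornify, were highest in CRC culture 2, at 9.002 and 2.44 FPKM, and at most 0.422 and 0.796 in the other 2 CRC cultures. Low levels did not extend to all genes of the upper epidermis: Asprv1 and Cdsn (corneodesmosin), from the list of other envelope genes and singled out after their values were seen, stood at 19.3, 149 and 56.7 and at 25.7, 45.2 and 52.9 FPKM in CRC cultures. The epidermal and the non-cornifying keratin pair were both highest in CRC culture 2 among the CRC cultures. Of the 21 Lce genes, 4 reached 1 FPKM anywhere and none reached 10 FPKM in the first table. Apart from Lce1g, no Lce gene exceeded 2.99 FPKM in CRC cultures or 0.349 in EpiC cultures. Lce1g ran against the rest, at 0.252, 0.618 and 1.36 FPKM in CRC cultures and 0.564, 1.20 and 4.16 in EpiC cultures (log2 difference −0.63, SE 0.28, limma adjusted p = 0.161). In each genotype its EpiC culture was above the CRC culture, while the groups overlapped. Of the 50-base windows of Lce1g transcripts, 18.4% also occur in other genes, so its level is uncertain.

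**Figure D2:**
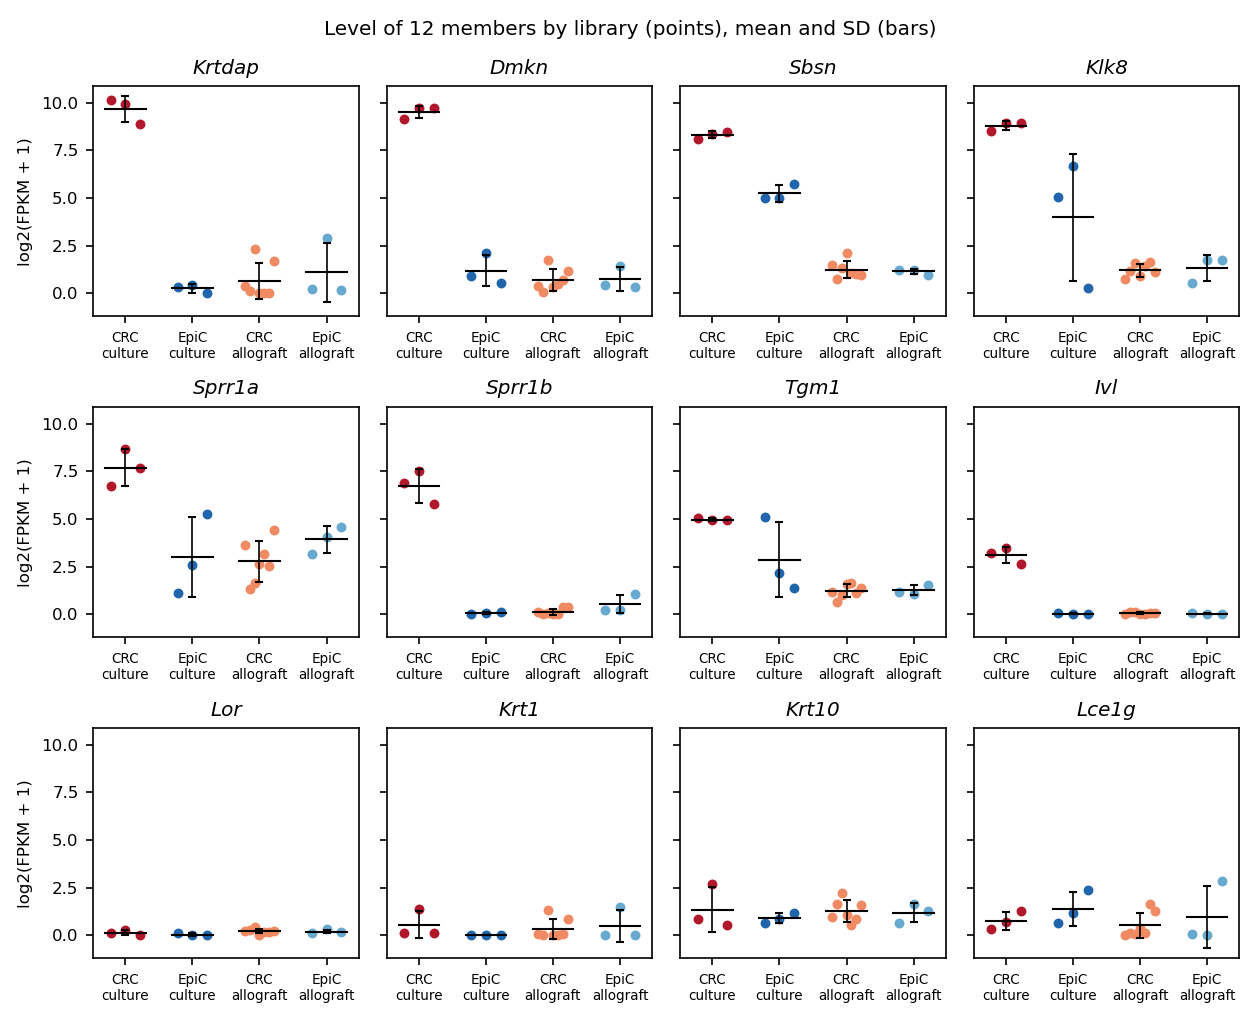
Level of 12 members as log2(FPKM + 1) in each library (points) of the 4 groups of the first table, with the mean (horizontal line) and SD (vertical bar) of 3 CRC cultures, 3 EpiC cultures, 7 CRC allografts and 3 EpiC allografts. Krtdap, Dmkn and Sprr1b are high, and Ivl moderate, in CRC cultures alone among these groups, and Sbsn and Klk8 are also present in EpiC cultures. Lor, Krt1, Krt10 and Lce1g stay at or below the 6.18 FPKM of Lce1g in EpiC allograft 5A.

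Over all genes, 23.2% of 11837 tested were called in this comparison of media, and 11.4% were called higher in CRC cultures. Of the 61 members 27 had a mean of at least 1 FPKM and were tested, and 14 were called, all higher in CRC cultures. The other 34 were too low to be tested, and many of the 27 passed that filter through the CRC cultures alone, so the count over tested members says little. The 14 were Cnfn, Dmkn, Ivl, Klk6, Klk7, Klk10, Klk13, Krtdap, Sbsn, Sprr1a, Sprr1b, Sprr2h, Sprr2k and Sprr3. The model left 2 residual degrees of freedom. With 1 culture per medium and genotype, leaving out either culture of a genotype takes that whole genotype out of the difference. Without CRC culture 2 only 5 members were called and without EpiC culture 2 only 6. Without EpiC culture 3 there were 16, with Sprr3 lost and Klk8, Sprr2g and Sprr2j-ps gained. Leaving out CRC culture 3 gave the same 16. Dmkn, Klk13, Krtdap, Sbsn and Sprr1b kept the call in all 10 alternatives of that comparison. Markers of other cells moved with this result. The 5 markers of stratified epithelium (Krt5, Krt14, Krt6a, Krt16, Trp63) were all called higher in CRC cultures and summed to 9920 to 14719 FPKM there and to 10.2 to 355 in EpiC cultures, where Krt5 was at 1.00 to 2.32. The 7 fibroblast markers summed to 27.2 to 49.0 FPKM in CRC and 3195 to 6225 in EpiC cultures, and 6 of 7 were called lower in CRC. The part of these cells in the result was not tested.

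Within the CRC cultures, the Sprr2 genes followed 1 order. All 8 Sprr2 genes that reached 1 FPKM in a CRC culture were highest in culture 1 (CYP19A1), intermediate in culture 2 (Brca1het) and lowest in culture 3 (Brca1hom). Sprr2d stood at 85.1, 4.31 and 1.79 FPKM, Sprr2h at 55.2, 26.5 and 5.49, and Sprr2e at 28.8, 0.887 and 0.213. Sprr2k stood at 32.0, 13.3 and 5.20 FPKM and Sprr2i at 17.6, 1.42 and 0.454. The summed Sprr2 level was 274, 60.1 and 16.5 FPKM. A few other members had that order too, among them Krtdap, while Sprr3, a gene of the same cluster that is typical of oesophagus and other internal stratified epithelia, ran the other way, at 1.24, 16.4 and 29.98 FPKM. Sprr1a and Sprr1b were both highest in culture 2. In the EpiC cultures these genes were low, with Sprr2e at most 1.84 and Sprr2h at most 1.68 FPKM. With 1 CRC culture of each genotype, genotype and library cannot be told apart, and no test of this order was made. How many of all genes had that order was not counted. Sprr2 genes under 1 FPKM were left out, and Sprr2b among them did not follow it. Of the 50-base windows of Sprr2 transcripts shared with other genes, there were 4.27% in Sprr2d, 10.2% in Sprr2e, 12.5% in Sprr2i and 0 in Sprr2h and Sprr2k, so the order did not rest on genes with shared sequence alone. Sprr2a1 and Sprr2a2, which share about 96% of their windows with other genes, are uncertain.

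**Figure D3:**
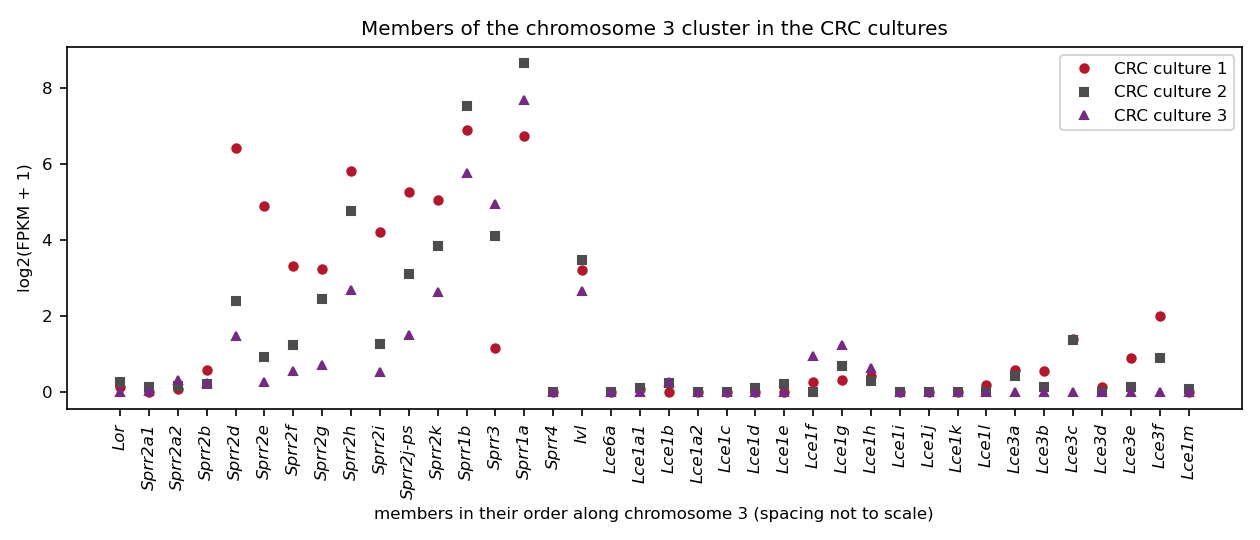
Level of the 38 members on chromosome 3 as log2(FPKM + 1) in CRC cultures 1 (circles), 2 (squares) and 3 (triangles), placed in their order along the chromosome with spacing not to scale. From Sprr2d to Sprr2k culture 1 is always on top and culture 3 always lowest, Sprr3 shows the reverse, and Lor and the Lce genes on both flanks lie near the bottom.

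The 38 members on chromosome 3 (all Sprr and Lce genes, Ivl and Lor) belong to the epidermal differentiation complex. Those at 5 FPKM or more in a CRC culture lay in a stretch from Sprr2d to Ivl, which also held Sprr4 at 0. Lor, Sprr2a1, Sprr2a2 and Sprr2b lay on one side, all under 1 FPKM there, and the Lce genes on the other, with at most 2.99 FPKM there. Another 17 members lie on chromosome 7, namely the 13 kallikreins and Sbsn, Dmkn, Krtdap and Cnfn.

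Other genes of keratinocyte differentiation, from 5 lists, were examined in the same fit of CRC against EpiC cultures. The median log2 difference of all 11837 tested genes was 0.04, and 23.2% of them were called, 11.4% higher in CRC cultures. List genes near 0 in EpiC cultures, such as Zfp750 and Spink5, passed the filter through the CRC cultures. The direction and the medians of the lists were therefore partly fixed by the filter. Of 26 other envelope and cornification genes 17 were tested, and 7 were called higher and 0 lower in CRC cultures, with a median of 1.63. The 4 most abundant genes of that list over the first table were S100a11, S100a10, Anxa1 and Cstb, of which the S100 genes were called (log2 differences 1.21 and 1.60, limma adjusted p = 0.023 and 0.0499). Anxa1 stood at 1348, 2823 and 3444 FPKM in CRC and 948, 1057 and 414 in EpiC cultures (limma adjusted p = 0.0831).

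Among 23 regulators, 22 were tested, 11 were called higher and 2 lower, with a median of 2.24. The lower ones were Fosl1, an AP-1 subunit (7.95, 11.9 and 11.3 FPKM in CRC and 55.6, 47.4 and 26.9 in EpiC cultures, log2 difference −1.92, limma adjusted p = 0.0245), and Cebpb, a bZIP factor (31.4, 33.8 and 40.2 against 144, 84.0 and 98.4 FPKM, log2 difference −1.57, limma adjusted p = 0.0215). The AP-1 subunits Junb and Jun did not pass the test (limma adjusted p = 0.0955 and 0.182). Some regulators were singled out after their values were seen, so their p-values add no separate support. Zfp750 and Grhl3 also passed the filter through the CRC cultures alone. Zfp750, a factor of terminal differentiation, stood at 38.2, 41.1 and 37.2 FPKM in CRC and at most 0.0402 in EpiC cultures (log2 difference 5.27, limma adjusted p = 0.00171). Grhl3, a grainyhead factor of the epidermal barrier, stood at 13.6, 18.7 and 14.5 against at most 0.134 FPKM (log2 difference 3.95, limma adjusted p = 0.00305). Fos stood at 58.3, 141 and 97.0 against 18.5, 10.7 and 2.66 FPKM (log2 difference 3.32, limma adjusted p = 0.031). The AP-1 subunits therefore moved in both directions, Fos up and Fosl1 down in CRC cultures.

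Of 16 lipid barrier genes 8 were tested, 5 were called higher and 1 lower in CRC cultures, with a median of 2.66. The lower one was Ugcg, the glucosylceramide synthase (11.4, 8.04 and 7.37 against 43.4, 46.5 and 34.7 FPKM, log2 difference −2.11, limma adjusted p = 0.00824), and Elovl4, which lengthens fatty acids, was higher (log2 difference 2.29, limma adjusted p = 0.00932). Of 12 inhibitors and other proteases 10 were tested, and 4 were called higher and 0 lower, with a median of 2.35. Slpi, a secreted protease inhibitor, stood at 3198, 2112 and 4201 FPKM in CRC and 309, 460.0 and 115 in EpiC cultures (log2 difference 3.58, limma adjusted p = 0.0244). Spink5, the inhibitor of epidermal kallikreins, was singled out after its values were seen and passed the filter through the CRC cultures alone. It stood at 47.4, 81.2 and 89.4 FPKM against at most 0.101 (log2 difference 6.08, limma adjusted p = 0.00229). Of 12 desmosome genes 11 were tested, and 7 were called higher and 0 lower, with a median of 4.43. Dsg3, a desmoglein of basal and suprabasal layers, stood at 193, 213 and 276 against 1.01, 1.11 and 0.0716 FPKM (log2 difference 7.09, limma adjusted p = 0.00279).

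In allografts most members were near 0 whichever method had been used for the cells. For Krtdap the 7 CRC allografts had a lowest, median and highest level of 0, 0.0900 and 3.92 FPKM, and EpiC allografts 7B, 4C and 5A had 0.174, 6.36 and 0.107. All allografts lay below all CRC cultures, and the log2 difference between CRC allografts and CRC cultures was −9.04 (SE 0.62, limma adjusted p = 9.22e-08). Dmkn had 0.0515, 0.384 and 2.28 FPKM as the lowest, median and highest of the CRC allografts, and 0.334, 1.73 and 0.240 in the EpiC allografts (CRC log2 difference −8.92, SE 0.38, limma adjusted p = 9.49e-10). For Sbsn the corresponding values were 0.672, 1.08 and 3.36 FPKM in CRC allografts and 1.32, 1.35 and 0.964 in EpiC allografts. Sbsn fell in both, by 7.09 on the log2 scale between CRC cultures and allografts (SE 0.29, limma adjusted p = 5.71e-10) and by 4.10 between EpiC cultures and allografts (SE 0.35, limma adjusted p = 2.76e-06). Its allografts overlapped between methods, whereas its cultures had not.

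Klk8 had a lowest, median and highest level of 0.647, 1.21 and 2.09 FPKM in CRC allografts, and 0.466, 2.32 and 2.32 in EpiC allografts 7B, 4C and 5A. It was lower than in CRC cultures by a log2 difference of −7.59 (SE 0.85, limma adjusted p = 9.98e-06). EpiC culture 3 lay below the EpiC allografts and the other 2 EpiC cultures above them, and the log2 difference of −3.06 (SE 1.02) had a limma adjusted p of 0.0608. Klk13 and Sprr3 were listed at 0 in all 10 allografts, so no fold is given for them. Tgm1 had 0.576, 1.25 and 2.14 FPKM as the lowest, median and highest of the CRC allografts (log2 difference −3.59, SE 0.52, limma adjusted p = 9.48e-05), and 1.26, 1.08 and 1.90 FPKM in the EpiC allografts.

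Sprr1a was lower in CRC allografts than in CRC cultures and yet the highest member in most allografts. It was the only member at 1 FPKM or more in every allograft and the only one to reach 10 FPKM in any. Its lowest, median and highest levels in CRC allografts were 1.54, 5.29 and 20.7 FPKM, and EpiC allografts 7B, 4C and 5A had 7.97, 15.8 and 22.8. The CRC allografts all lay below the CRC cultures (log2 difference −5.13, SE 0.69, limma adjusted p = 5.07e-05). The EpiC allografts lay within the range of the EpiC cultures (log2 difference 1.34, SE 0.83, limma adjusted p = 0.312). Sprr1b, of the same family, had a median of 0.0368 and a highest level of 0.299 FPKM in CRC allografts and at most 1.08 in EpiC allografts.

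In the comparison of CRC allografts with CRC cultures 39.6% of 12325 tested genes were called and 18.4% were called lower. Of the 61 members 22 were tested, and 19 were called, all lower in the allografts. Krt10, Lce1g and Sprr2e did not pass the test. Without EpiC culture 3, which enters the same model, the count was 20, with Sprr2g added. Leaving out any of several other libraries, such as EpiC culture 1 or CRC allograft 10B, also gave 20 with Sprr2g. Of the 22, 8 stayed under 1 FPKM in every library but the CRC cultures, so they could pass the filter only by being high there, and the direction of the calls, here and in the test of the difference that follows, was partly fixed by the filter. In the comparison of EpiC allografts with EpiC cultures 14.2% of genes were called and 6.26% were called lower, and 1 member, Sbsn, was called. Without EpiC culture 3 the count was 5, with Klk6, Klk8, Klk10 and Tgm1 added. Whether the 2 changes differed was tested directly. That difference was called for 12.2% of all genes, in 5.87% with the more negative change for CRC, and for 16 members, all with the more negative change for CRC. The largest were Krtdap (log2 −9.69, SE 0.97, limma adjusted p = 2.52e-05) and Dmkn (log2 −8.37, SE 0.60, limma adjusted p = 1.06e-06). For Klk6 and Klk8 the limma adjusted p was 0.0372 and 0.04, and the call held in only 9 and 7 of 20 alternatives, with adjusted p up to 0.209 and 0.169. Without EpiC culture 3 the count of 16 became 17, with Sprr2g added, and the same held without CRC allograft 1 and without CRC allograft 2. These comparisons share the 6 cultures with the comparison of media, so they are not separate evidence of high levels in CRC cultures. Members near 0 in EpiC cultures could hardly fall further in EpiC allografts. For them the difference between the changes largely repeats the difference between the cultures.

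**Figure D4:**
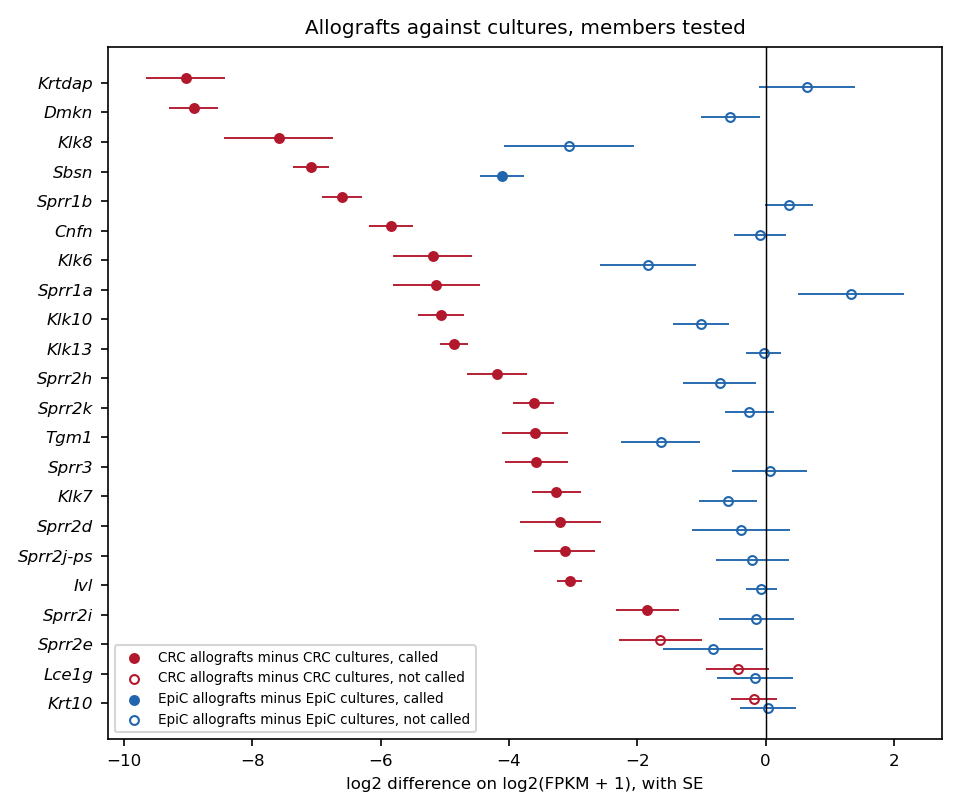
Log2 difference between allografts and cultures, on log2(FPKM + 1) with SE bars, for the 22 members tested, for CRC (red) and EpiC (blue); filled points passed the test and open points did not. The red points reach −9.04 for Krtdap, while among the blue points only Sbsn, at −4.10, is filled.

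Markers of other cells also moved between cultures and allografts. The 5 macrophage markers found summed to 3079 to 10455 FPKM in CRC allografts and 2741 to 11087 in EpiC allografts, against 7.16 to 55.0 in the cultures. The fibroblast markers summed to 1376 to 4850 FPKM in CRC allografts and 603 to 3609 in EpiC allografts. The stratified epithelium markers fell from 9920 FPKM or more in CRC cultures to 3.36 to 135 in CRC allografts, with all 5 called lower. The 6 simple epithelium markers summed to 1006 to 2710 FPKM in CRC cultures and to 38.4 to 497 in CRC allografts, with 4 of 6 called lower and a median log2 difference of −5.03. Among the 5 lists, 9 of 16 tested envelope genes, 13 of 23 regulators, 5 of 8 lipid barrier genes, 9 of 10 inhibitors and proteases and 10 of 10 desmosome genes were called lower in CRC allografts than in CRC cultures. The median log2 differences of these lists were −1.46, −2.32, −2.74, −5.08 and −5.92, against 0.04 for all genes. Of all tested genes 18.4% were called lower. As for the members, any list gene that passed the filter only through the CRC cultures had its direction fixed by that. In the opposite direction, 4 regulators and 2 lipid barrier genes were called higher. Between EpiC allografts and EpiC cultures the lists had 1, 5, 0, 3 and 0 genes called lower and 0, 5, 1, 0 and 0 called higher. Of all tested genes 14.2% were called there, 6.26% lower. How far host cells dilute the RNA of the grafted cells was not tested.

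Some members were higher in the same 3 allografts. Krtdap was at 2.18 to 6.36 FPKM in CRC allografts 10C and 12 and EpiC allograft 4C, and at most 0.295 in the other 7 allografts. Krt1, which CRC cultures 1 and 3 nearly lacked, stood at 1.502 FPKM in 10C, 1.74 in 4C and 0.823 in 12, and at most 0.0579 in the others. Dmkn was at 1.27 to 2.28 FPKM in the same 3 libraries and at most 0.599 in the others, and Klk7 was at 0.0652 to 0.254 in these 3 and listed at 0 in the other 7. Other epidermal members did not separate these 3: Lor stood at 0.176 to 0.336 FPKM in them and at up to 0.201 in the others, and Krt10 was at 2.13 in CRC allograft 10B, above 12 and 4C at 1.98 and 2.09. In EpiC allograft 4C 8 markers of hair follicle and hair shaft summed to 1.86 FPKM, against at most 0.283 in the other allografts. The part of host skin in these libraries was not tested. These libraries and genes were picked out by their values, so no test is given.

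Between the methods, the allografts showed no member difference that passed the test. In that comparison 0.00833% of 11999 genes were called by limma, and 7 members were tested and 0 called, with 1 member, Sprr1a, at an unadjusted p under 0.05. Of all tested genes 8.43% were under that value. Sprr1a was lower in CRC allografts by a log2 difference of −1.59 (SE 0.63, limma adjusted p = 0.541), and the groups overlapped. Lce1g reached 6.18 FPKM in EpiC allograft 5A and at most 2.15 elsewhere among allografts (log2 difference −0.90, SE 0.63, limma adjusted p = 0.713). Lce3b stood at 3.44 FPKM in CRC allograft 10C and at most 0.481 in any other library of the first table. These results do not show that the methods give equal levels, since 3 EpiC allografts were compared with 7 CRC allografts.

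In primary cancer 1 the kallikreins made up 60.7 of the 86.4 FPKM of all members, and in primary cancer 2 49.4 of 125 FPKM, where Tgm1 was the highest member. The tables were normalised separately, so levels are compared within the second table only, where a 0 may also be a missing estimate and is given as listed at 0. Primary cancers 1 and 2 had 9 and 10 members at 1 FPKM or more. Klk8 stood at 12.3 and 24.0 FPKM, Klk6 at 16.3 and 23.0, and Sbsn at 8.10 and 15.9. Those 3 genes were of the same order in both cancers, but others differed. Klk10 stood at 23.3 FPKM in cancer 1 and 0.244 in cancer 2, and Klk14 at 7.03 and 0.131. In the opposite direction, Tgm1 stood at 3.81 and 32.4 FPKM and Lce1g at 0.0674 and 12.8. Every Sprr2 gene was at or below 0.0865 FPKM in both, and Krtdap was at 0.769 and listed at 0.

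CRC culture of the cancers gave high levels mainly for cancer 2. Klk8 stood at 44.8 FPKM in the CRC culture of cancer 1 and at 1087 in that of cancer 2, against 12.1 and 23.9 in the EpiC cultures. Klk6 stood at 42.1 and 281 FPKM in CRC and 5.13 and 1.52 in EpiC cultures. Both genes were higher in the CRC culture than in the matching cancer and EpiC culture in both pairs. Sbsn stood at 95.9 and 285 FPKM in CRC and 3.74 and 20.0 in EpiC cultures, and Dmkn at 44.3 and 230.1 against 0.215 and 0.982. Krtdap stood at 3.30 and 178 FPKM in CRC cultures and was listed at 0 and at 0.102 in EpiC cultures. Cnfn stood at 0.719 and 34.2 FPKM and Sprr1b at 0.881 and 18.1 in CRC cultures. Sprr1a stood at 1.05 and 47.1 FPKM in CRC and 8.15 and 0.873 in EpiC cultures, so that its direction differed between the cancers.

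Of the 21 members that reached 1 FPKM in the second table, 14 were highest in the CRC culture among the 3 libraries of cancer 1 and 17 among those of cancer 2. The CRC culture of cancer 2 was above that of cancer 1 in 20 of the 21. All 21 reached 1 FPKM in that culture of cancer 2, so the counts of 17 and 20 were partly fixed by the choice of members. No such count was made over all genes. The FPKM of all genes summed to 1615930 in the CRC culture of cancer 2 and to 607519 to 710511 in the other 5 libraries. The members took 0.142% of that sum in the CRC culture of cancer 2, 0.04% in that of cancer 1 and 0.00633% to 0.0205% in the other 4. In the CRC cultures of cancers no Sprr2 gene exceeded the 4.40 FPKM of Sprr2h, and Sprr3 reached 0.271 FPKM. Lor stood at 1.95 FPKM in the CRC culture of cancer 2 and at most 0.187 in the other 5 libraries.

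**Figure D5:**
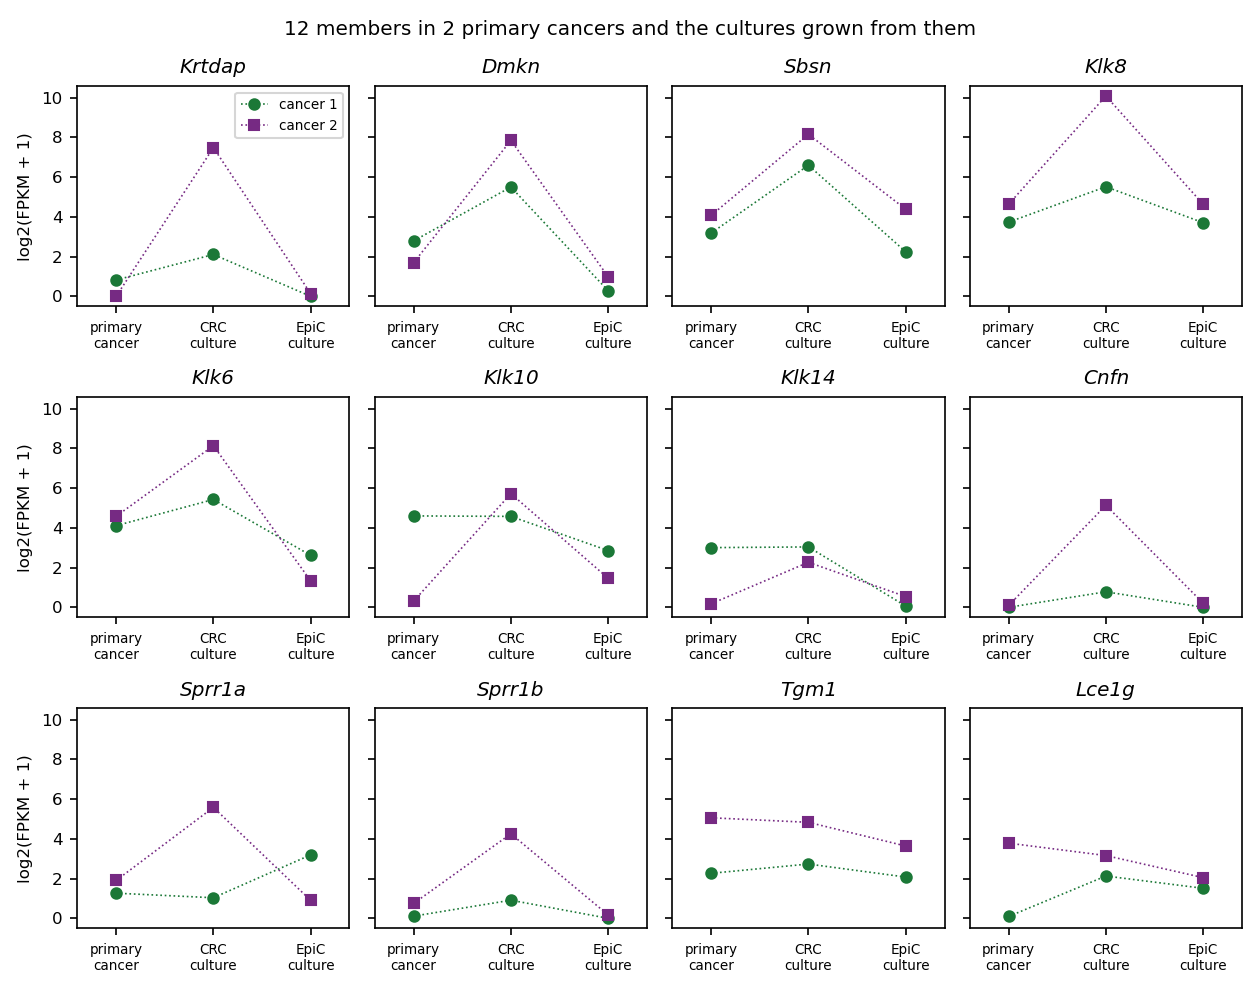
Level of 12 members as log2(FPKM + 1) in primary cancers 1 (circles) and 2 (squares) and in the CRC and EpiC cultures that share their number, joined by dotted lines. Krtdap, Dmkn, Sbsn, Klk8 and Klk6 peak in the CRC cultures of both cancers, by more for cancer 2, while Klk10 and Klk14 of cancer 1 are as high in the cancer as in its CRC culture.

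No member passed the limma test in the second table, where 15 of 60 members were tested with 2 libraries a group and 3 residual degrees of freedom. Of all 12266 tested genes 0.889% were called between CRC cultures of cancers and primary cancers, 0.677% between EpiC cultures and primary cancers, and 0.00815% between the kinds of culture. At an unadjusted p under 0.05 there were 5, 1 and 8 of the 15 members, or 33.3%, 6.67% and 53.3%, against 7.02%, 6.8% and 1.63% of all tested genes. The single one for EpiC cultures against cancers was thus at the share of all genes. For Dmkn the log2 difference between CRC and EpiC cultures of cancers was 6.04 (SE 0.89, limma adjusted p = 0.489), with the CRC culture higher in both pairs. For Sbsn it was 4.06 (SE 0.88) and for Klk6 4.81 (SE 0.94), both with a limma adjusted p of 1. Dmkn was above the primary cancers in CRC cultures by 4.43 (SE 0.89, limma adjusted p = 0.111). Without the CRC culture of cancer 1, 2 members were called against the primary cancers. They were Krtdap and Klk8, both higher, and the lone CRC culture was there assumed to vary like the other groups. All 5 lists of other differentiation genes had 0 genes called in all 3 comparisons. The stratified epithelium markers, of which 4 of 5 were found, summed to 60.8 to 204 FPKM in the cancers, 325 to 3866 in their CRC cultures and 17.1 to 151 in their EpiC cultures. Macrophage markers summed to 664 to 1055 FPKM in the cancers and to at most 36.3 in the cultures. The part of these cells in the differences was not tested.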

How the data were processed

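Values were FPKM, deposited by the authors in 2 tables of 16 and 6 libraries, per the file headers and names. The tools named in the submitters' processing notes are FastQC, Trim Galore, TopHat and Cufflinks, with the genome build mm9 and no versions. The depth is unknown. Of the nonzero values of the second table, 51.5% had over 6 digits, and 97.2% of such values ended in 5. A mean of 2 values has that form, so its libraries may be averages. In it, 162 symbols with several entries were summed. Among 135 pairs of libraries 0 were identical.

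Libraries were grouped by their titles. limma 3.58.1 (R 4.3.3; lmFit, eBayes with trend) was run on log2(FPKM + 1) for all genes averaging 1 FPKM or more over the fitted libraries, and called genes had a Benjamini-Hochberg adjusted p under 0.05 over all of them. Genotype was in the model of the first table. Medium was tested in the 6 cultures and, apart, in the 10 allografts, and allografts were compared with cultures over all 16 libraries. The cancers and their cultures, as 3 groups, entered 1 model. There the titles give libraries of 1 cancer the same number; their deviations from group means correlated at −0.0555 (cancers and CRC cultures), −0.113 (cancers and EpiC cultures) and 0.242 (CRC and EpiC cultures) over 12266 genes. The calling of genes was tested on simulated data. Alternatives were a pseudocount of 0.1, no filter, leaving out each library, rescaling by median ratios, no genotype, and a block for the cancer.

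The members and lists were chosen with earlier results of these data known. Genes given by name and Sprr, Lce or Klk genes averaging 5 FPKM or more in a group could be described by library, and the 4 most abundant genes of each list; a few others are named as examples of counts. Beside the 5 lists, markers of 10 cell types were examined, of which endothelial, lymphocyte, adipocyte, skeletal muscle and sebocyte markers are given in the closing observations. Shared 50-base windows were counted in GENCODE M21 transcripts.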

Additional observations from a re-analysis of the deposited data

Results flagged for a closer look

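The change from cultures to allografts differed between CRC and EpiC, by a limma test of the difference itself, for 16 members. Of all tested genes 12.2% were called, 5.87% with the more negative change for CRC. Written as the CRC change minus the EpiC change on the log2 scale, the difference was −9.69 for Krtdap, −8.37 for Dmkn and −2.98 for Sbsn, the secreted suprabasal genes. It was −6.98 for Sprr1b, −6.47 for Sprr1a, −3.63 for Sprr3, −3.47 for Sprr2h, −3.36 for Sprr2k and −2.93 for Sprr2j-ps. Among the kallikreins it was −4.83 for Klk13, −4.53 for Klk8, −4.05 for Klk10, −3.35 for Klk6 and −2.67 for Klk7. The calls of Klk8 and Klk6 held in only 7 and 9 of 20 alternatives. For the envelope genes Cnfn and Ivl it was −5.76 and −2.99. Members with hardly any level in EpiC cultures could hardly fall further in EpiC allografts. For them the value largely repeats the difference between the cultures. Klk13, at most 0.0360 FPKM in EpiC cultures, is an example, with a log2 difference of 4.79 between CRC and EpiC cultures. Of the 22 members tested, 8 stayed under 1 FPKM outside the CRC cultures, so the direction of the calls was partly fixed by the filter.

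A single library stood apart from the other CRC allografts, by the share of the range that separates it from its nearest neighbour, for 4 of 26 members examined. The limit used is passed in about 1 in 20 groups of normally distributed values. Many members were at or near 0 in these allografts, so that rate does not hold here and the 4 cannot be set against it. Klk6 stood at 1.94 FPKM in CRC allograft 1. Klk7 stood at 0.254 FPKM and Sprr2d at 0.142 FPKM in CRC allograft 10C. Sprr2i stood at 0.116 FPKM in CRC allograft 12 and was listed at 0 in the other CRC allografts, where any level above 0 would stand apart.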

How the results depend on the processing

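No member called in any comparison changed direction under the alternatives run. In the comparison of media in culture the 14 calls became 16 with a pseudocount of 0.1, 10 without a filter and 15 without genotype, and leaving out each library gave 5 to 16. In CRC allografts against CRC cultures the 19 calls became 33 without a filter, where more members were tested, and 16 to 20 on leaving out each library. In EpiC allografts against EpiC cultures the count was 1 to 5, and for the difference between these changes 12 to 17. Between CRC and EpiC allografts it was 0 throughout, and in the cancers 0 to 2 for CRC cultures against primary cancers and 0 in the other comparisons. Rescaling by median ratios left every count as it was.

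With the cancer as a replicate block, 0 members were called in each of the 3 comparisons of the second table, as without the block. With the EpiC numbers crossed in the block, chosen after the data were seen, 0 members were called. The depth is unknown, so levels under about 1 FPKM carry an unknown counting error.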

Other observations

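The remaining marker lists describe what other RNA the libraries held. The 4 endothelial markers summed to 27.1 to 96.5 FPKM in CRC allografts, 21.4 to 97.9 in EpiC allografts and 20.5 to 30.4 in primary cancers, and to at most 4.42 in any culture. The 5 lymphocyte markers summed to 1.09 to 7.26 FPKM in CRC allografts and 5.29 to 9.40 in EpiC allografts, and to at most 0.197 in the cultures of the first table. The 3 adipocyte markers summed to 45.3 to 127 FPKM in CRC cultures and 99.0 to 364 in EpiC cultures. The 4 skeletal muscle markers reached 310 FPKM in a CRC allograft and 159 in a CRC culture, and the 3 sebocyte markers stayed at or below 4.66 FPKM in all 22 libraries.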
